A study of Mus musculus with 12 samples.

Results

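The regions described here are 886 stretches of mouse genome that were less open in 2-cell embryos cultured with IWR1-endo, an inhibitor of tankyrase, than in embryos cultured with its solvent DMSO. They are every entry of the authors' list of 1400 less-open regions that spans exactly 1000 bases, the smallest width in that list, and make up 63.3% of it. They are called narrow less-open regions below. Both deposited lists, less open and more open, hold 3745 regions together, of which 514 are wider less-open regions, 998 are narrow more-open regions of 1000 bases and 1347 are wider more-open regions. The members were chosen by the authors' call of lower openness in IWR1 and by width, so neither is a result. The next widths in the list are 1037 bases (chromosome 15, 73060631 to 73061668) and 1039 bases (chromosome 2, 106635207 to 106636246), and no region lies between those and 1000.

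Embryos of NSA(CF-1) females and B6SJLF1/J males were cultured in KSOM with 50 µM IWR1-endo (IWR1 below) or with DMSO alone, and both groups were collected 46 h after the ovulation-inducing hormone. ATAC-seq, which reads open chromatin by where a transposase inserts adapters, was made from 2 collections of 100 embryos per group. RNA-seq was made from 4 collections of 10 embryos per group. The zona and the polar bodies were taken off in both assays, and every library pools whole embryos. The lists carry coordinates in mm10 and no value per region or per library, so the size of the loss at a region, its spread between the collections and the depth behind it are unknown, and no statistic on openness is given here.

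In chromatin, open sites mark promoters at gene starts and, away from them, enhancers and other elements where transcription factors hold nucleosomes aside. In the mouse 2-cell embryo the embryonic genome is switched on, and accessible sites are gained both at promoters and at distal elements. Tankyrase adds poly-ADP-ribose to proteins such as Axin, a scaffold of the complex that degrades beta-catenin.

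The RNA-seq libraries held 16606155 to 49672143 counts in genes. All 27 early 2-cell genes that could be placed at 1 locus, of 34 listed, had counts in every library. Their summed level was 2495 to 3106 FPKM (counts scaled to the deposited gene length and to the library's total count) in DMSO and 3031 to 5492 FPKM in IWR1. Of 17 markers of cumulus and granulosa cells, 2 had a count in every library and Amh and Inhba had none in any. Their summed level was 20.7 to 38.3 FPKM in DMSO and 19.2 to 28.3 FPKM in IWR1.

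Only 10 of the narrow less-open regions had their midpoint within 1 kb of an annotated gene start. The start of a gene, and the sequence around it, were known for 7 RefSeq genes whose start fell inside such a region, and these windows, with 1 microRNA, were the stretches of the regions read here. The windows of 2 protein-coding genes, Tango2 and Usp17lb, and of the non-coding genes Gm29371 and Gm45607 are shown as examples of the starts that such a region did hold: both protein-coding ones, and of the 4 non-coding windows that lie wholly inside a region, those with the highest and the lowest G and C content. Each runs 5′ to 3′ on the gene's strand from 250 bases before the start to 50 bases after it, from RefSeq on GRCm38.p6, the assembly of mm10. Capitals mark matches to the motifs named after them.
Tango2, chr16:18343883-18344182, - strand: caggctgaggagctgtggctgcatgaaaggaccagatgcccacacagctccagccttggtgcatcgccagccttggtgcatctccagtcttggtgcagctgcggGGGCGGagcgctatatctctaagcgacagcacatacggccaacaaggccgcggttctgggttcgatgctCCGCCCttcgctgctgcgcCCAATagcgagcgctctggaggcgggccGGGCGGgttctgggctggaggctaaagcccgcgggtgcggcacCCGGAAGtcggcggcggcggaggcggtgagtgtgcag
Usp17lb, chr7:104842534-104842833, - strand: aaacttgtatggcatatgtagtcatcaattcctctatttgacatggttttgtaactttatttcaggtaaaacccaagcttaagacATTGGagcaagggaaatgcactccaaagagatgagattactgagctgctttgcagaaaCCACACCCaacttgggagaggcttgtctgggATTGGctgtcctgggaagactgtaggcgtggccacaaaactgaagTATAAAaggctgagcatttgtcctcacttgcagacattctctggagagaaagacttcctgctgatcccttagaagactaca
Gm29371, chr1:87086975-87087274, + strand: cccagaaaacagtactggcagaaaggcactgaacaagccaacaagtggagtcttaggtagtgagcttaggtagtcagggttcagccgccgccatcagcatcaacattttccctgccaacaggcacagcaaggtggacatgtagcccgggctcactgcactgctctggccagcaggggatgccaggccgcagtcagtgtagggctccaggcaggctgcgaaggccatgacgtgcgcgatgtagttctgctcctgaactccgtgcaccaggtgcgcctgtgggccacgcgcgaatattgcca
Gm45607, chr8:46596218-46596517, + strand: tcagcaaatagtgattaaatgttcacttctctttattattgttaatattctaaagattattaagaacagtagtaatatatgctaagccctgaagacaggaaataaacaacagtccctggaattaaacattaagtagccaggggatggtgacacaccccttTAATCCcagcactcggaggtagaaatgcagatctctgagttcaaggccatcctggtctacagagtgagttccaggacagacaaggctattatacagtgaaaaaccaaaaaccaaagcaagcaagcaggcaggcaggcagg

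These windows differed widely in composition. The Tango2 window was 66.7% G and C with 26 CG dinucleotides, and that of Gm29371 was 59% with 13. The Usp17lb and Gm45607 windows were 43.7% and 40.7% G and C with 1 CG each. Across the 32544 different start windows of the table, the median was 53% (quartiles 46% and 61.7%) with a median of 7 CG. The windows not shown were at 47.7% with 0 CG (Gm36751), 43.3% with 6 CG (Gm15564) and 39% with 1 CG (Gm40793), so that 2 of the 7 genes were above the median of all windows and 5 below it.

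Matches were sought on both strands for 16 short motifs. The Tango2 window held 3 GC boxes (GGGCGG, bound by Sp and Klf factors), 1 CCAAT box (CCAAT, bound by NF-Y) and 1 ETS site (CCGGAAG). Of all start windows, 35.9% held a GC box, 37.4% a CCAAT box and 8.91% such an ETS site. The Usp17lb window held 2 CCAAT boxes, 1 TATA box (TATAAA) ahead of the start and 1 KLF site (GGGTGTGG), found in 13.6% (TATA box) and 3.57% (KLF site) of all windows. That of Gm45607 held 1 match to GGATTA, bound by Obox and Otx homeodomain factors and present in 7.06% of windows, and that of Gm29371 held none of the 16. None of the 4 held the Tcf and Lef core CTTTGAT, which 3.73% of all windows held. A match describes letters only and does not show that a factor binds.

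The narrow less-open regions lay away from gene starts. Of the 868 outside chromosome 18, for which starts were known, 10 (1.15%, 95% exact interval 0.554% to 2.11%) had a midpoint within 1 kb of a start. Among narrow more-open regions the share was 295 of 958 (30.8%, interval 27.9% to 33.8%). The difference was far beyond counting error (Fisher's exact test, two-sided, adjusted p = 8.03e-78 over 8 position tests). The wider less-open regions had 19 of 504 within 1 kb (3.77%, interval 2.28% to 5.82%), also more than the narrow ones (Fisher's exact test, adjusted p = 0.00325). These tests and intervals treat regions as independent, and counting neighbours within 10 kb once left the shares at 1.07%, 31% and 3.77%.

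**Figure D1:**
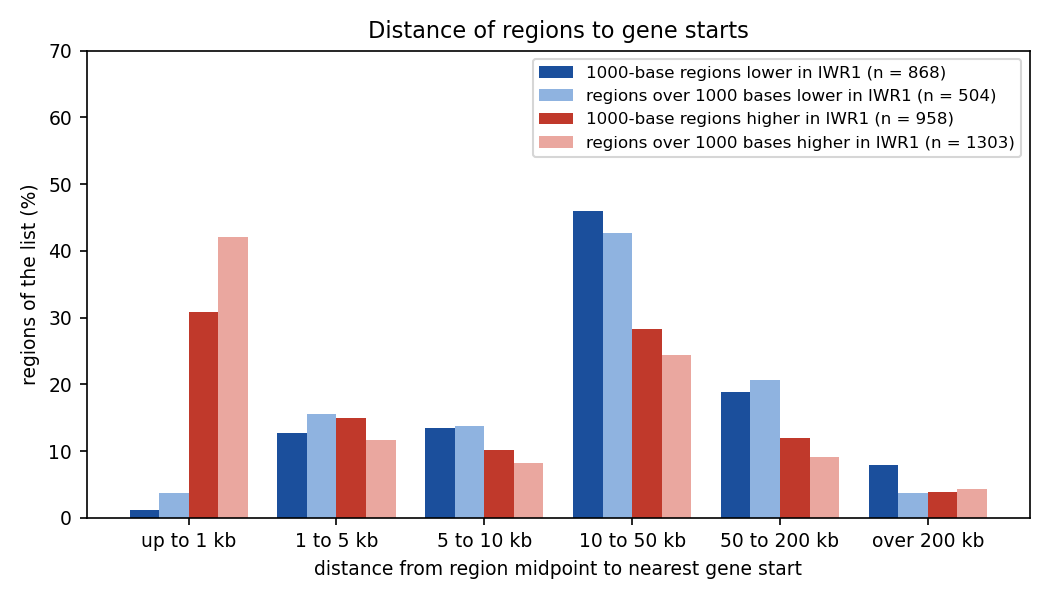
Share of each region list (%) by distance from the region midpoint to the nearest annotated gene start, for the 4 lists outside chromosome 18. Of the narrow less-open regions 1.15% lie within 1 kb of a start and 46% lie 10 to 50 kb away, while 30.8% of narrow more-open regions lie within 1 kb.

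The distance to the nearest start had a median of 20.4 kb (quartiles 9.05 and 51.6 kb) over the narrow less-open regions. It was 18.2 kb over the wider less-open regions and 7.49 kb over the narrow more-open regions. The largest share of the narrow less-open regions, 46%, lay 10 to 50 kb from a start, 18.8% lay 50 to 200 kb away and 7.95% farther still. Outside chromosome 18, starts were known for 17492 of 21376 protein-coding genes (81.8%) but only 27025 of all 48618 annotated genes (55.6%). Some distances are therefore overestimates, and some regions near a start were missed. With either boundary of every annotated gene in place of starts, an alternative chosen after seeing the data, 5.87% of the narrow less-open regions were within 1 kb against 40.4% of the narrow more-open regions (Fisher's exact test, adjusted p = 6.52e-75).

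The 10 regions near a start belonged to 4 protein-coding genes and 6 long non-coding genes. The region at Tango2 (chromosome 16, 18343459 to 18344459) had its midpoint 27 bases from a start of this gene, whose fly counterpart was named for transport and Golgi organization. That at Usp17lb (chromosome 7, 104842139 to 104843139) was 56 bases from the start of this deubiquitinase gene, 1 of a family of close copies active in early embryos. The start of Galp, which encodes galanin-like peptide, was 701 bases from the midpoint of a region on chromosome 7 (6195889 to 6196889), and that of Myg1, an exonuclease gene, 830 bases from one on chromosome 15 (102330379 to 102331379). The 6 non-coding genes were Gm29371, Gm36751, Gm40793, Gm15564, Gm39813 and Gm45607, with starts 16 to 843 bases from the midpoints.

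Most narrow less-open regions lay within a gene, but the share of the genome within genes was not worked out here. Of the 886, 510 (57.6%, 95% exact interval 54.2% to 60.8%) had a midpoint inside an annotated gene body, 451 of them in a protein-coding gene, 47 in a long non-coding gene only and 12 in another kind of gene. The other 376 lay in no gene. The share inside genes was 54.5% for wider less-open regions (280 of 514) and 59.8% for narrow more-open regions (597 of 998), and neither differed from the narrow less-open regions beyond counting error (Fisher's exact test, adjusted p = 0.352 and 0.372). With region edges in place of midpoints the second comparison passed the test, at 59% against 73.4% (adjusted p = 1.42e-10). Exon and intron positions were not used here.

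Inside protein-coding genes the narrow less-open regions were spread along the whole length. For 363 placements in genes whose strand was known, the median position was 47.9% of the way from start to end, and the 10 equal parts of the gene held from 6.89% to 11.8% each. The part nearest the start held 29 of them (7.99%). In the narrow more-open regions that part held 152 of 372 (40.9%). No test was run on these positions, which follow in part from the distances above.

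**Figure D2:**
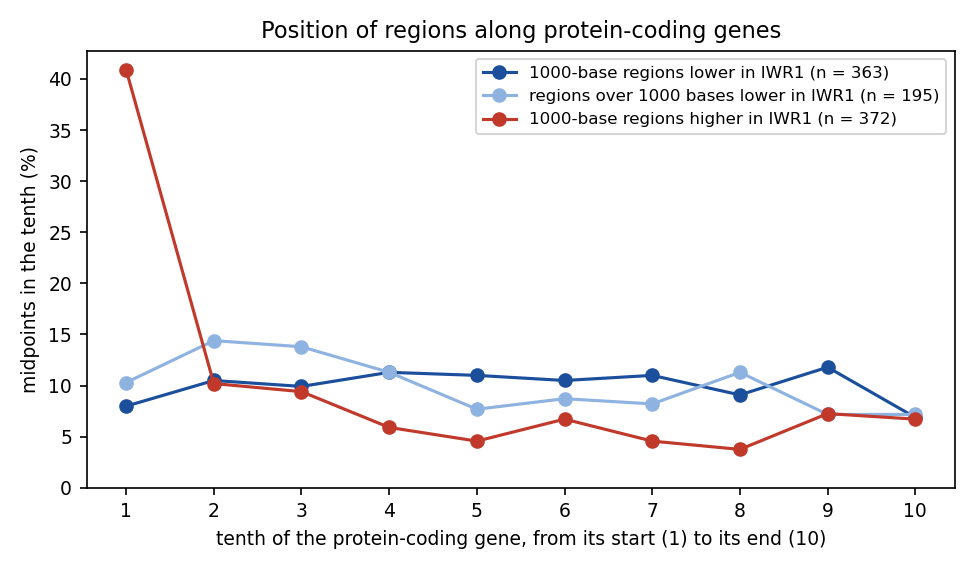
Share of region midpoints (%) in each of 10 equal parts of the protein-coding gene that holds them, from its start (1) to its end (10), for 3 lists. The narrow less-open regions stay between 6.89% and 11.8% throughout, while the narrow more-open regions begin at 40.9%.

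Away from genes, 170 of the 886 (19.2%, 95% exact interval 16.6% to 21.9%) lay over 10 kb from any annotated gene. This was more than among narrow more-open regions, 112 of 998 (11.2%; Fisher's exact test, adjusted p = 6.11e-06). It was close to the 101 of 514 (19.6%) of the wider less-open regions, from which it did not differ beyond counting error (Fisher's exact test, adjusted p = 0.834).

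Most narrow less-open regions had no other region of their list within 10 kb, but the share that even placement would give was not worked out. Another region of the less-open list lay within 10 kb of 70 of the 886 (7.9%, 95% exact interval 6.21% to 9.88%), and the median distance to the next one was 291 kb. For the wider less-open regions it was 58 of 514 (11.3%), a difference that did not pass the test (Fisher's exact test, adjusted p = 0.0688). For the narrow more-open regions it was 126 of 998 (12.6%; Fisher's exact test, adjusted p = 0.00227) but theirs is the longer list, which by itself puts regions closer together. At 5 kb that difference no longer passed (5.19% against 7.62%, adjusted p = 0.063).

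Of the 886, 16 (1.81%) lay within 10 kb of a more-open region, and whether this is fewer than even placement would give was not tested. The start of Tango2 was 1 of those places, with a more-open region 4139 bases from the less-open one. The others included the region by Fbxw11, 3017 bases from a more-open region, and the one inside Prdx3, 9634 bases from one.

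The most narrow less-open regions within any 100 kb were 4, on chromosome 9 (114422893 to 114495076, midpoints 71.2 kb apart). Of these, 2 were inside Glb1, the lysosomal beta-galactosidase gene, and 1 was inside the chemokine receptor gene Ccr4. The closest groups of 3 were on chromosome 2 (57205301 to 57226029, midpoints 19.7 kb apart) and inside Smyd3 on chromosome 1 (179477935 to 179501378, midpoints 22.4 kb apart). Smyd3, a lysine methyltransferase gene, Pfkfb3, a glycolytic regulator gene, and Arhgap26 were the tested genes with 3 midpoints inside. A run at Aebp2, a Polycomb cofactor gene on chromosome 6, held 3 narrow and 2 wider less-open regions within 32.3 kb, with 2 of the narrow ones inside the gene.

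By chromosome, the narrow less-open regions were most numerous on chromosomes 1 (91 regions, 10.3%), 2 (87, 9.82%) and 6 (70, 7.9%). Chromosome 11 held 34 (3.84%) of them against 106 (10.6%) of the narrow more-open regions, and chromosome 15 held 11 (1.24%) against 47 (4.71%). Per 100 annotated protein-coding genes there were 7.56 on chromosome 1, 2.11 on chromosome 11 and 1.42 on chromosome 15. The X chromosome held 28 (3.16%), and 37 (7.2%) of the wider less-open regions. No test was run over chromosomes.

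**Figure D3:**
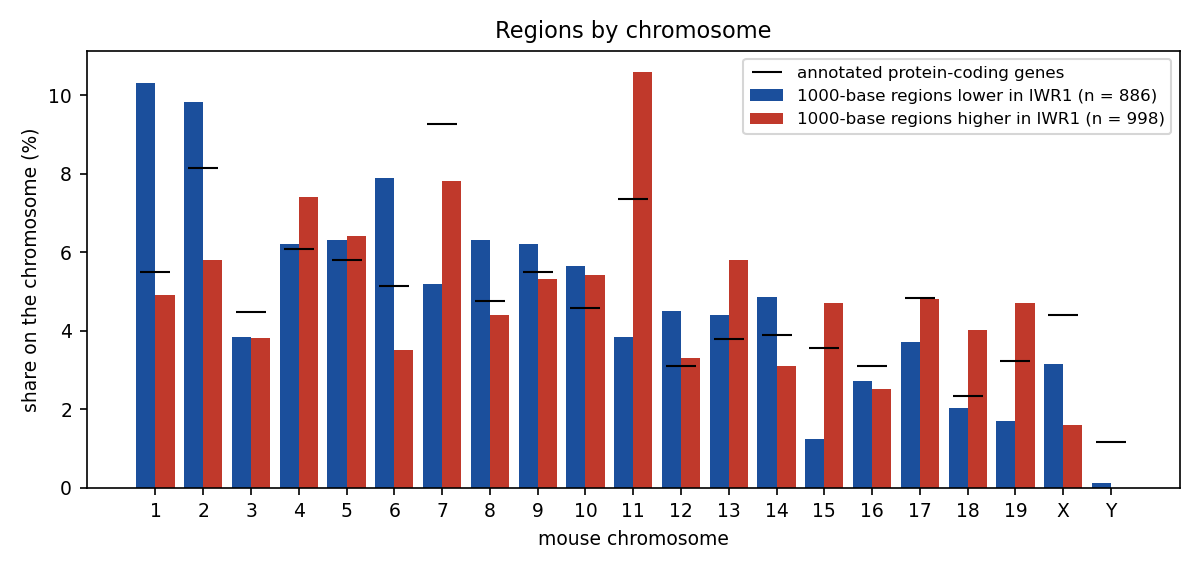
Share (%) of the 886 narrow less-open and the 998 narrow more-open regions on each mouse chromosome, with black marks for the share of annotated protein-coding genes. Chromosomes 1 and 6 hold 10.3% and 7.9% of the narrow less-open regions, and chromosome 11 holds 3.84% of them against 10.6% of the narrow more-open regions.

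RNA-seq was an assay the choice of regions did not use. Among genes that hold a narrow less-open region edgeR called more falls than rises, as it did over all genes tested. Of all 14994 genes tested, 25.4% were called lower and 23.3% higher in IWR1 (edgeR's quasi-likelihood test, Benjamini-Hochberg adjusted p under 0.05), 48.7% in all. DESeq2 called 22.7% lower and 25.8% higher, 48.5% in all, of 17537 genes. A midpoint lay inside 434 counted genes with 1 locus, and 399 of them passed the filter on low counts. Of the 399, 116 (29.1%) were lower and 71 (17.8%) higher, with a median log2 fold change of -0.12 against 0.17 over all genes. Within 10 kb of a gene, the tested genes were 622, of which 209 (33.6%) were lower and 107 (17.2%) higher (median -0.27). DESeq2, which tested another set of genes, called 218 lower and 136 higher, given as counts without a share. Counts are relative to the rest of each library, and in pooled embryos fewer cells and less RNA per cell cannot be told apart.

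Genes with other kinds of region inside gave other values. With a wider less-open region inside, 87 of 222 (39.2%) were lower and 36 (16.2%) higher. With a narrow more-open region inside, 44 of 411 (10.7%) were lower and 140 (34.1%) higher. Thus the narrow less-open regions lay nearer to the background than either, and the difference between these gene groups was not tested. They share genes: 29 tested genes held both a narrow less-open and a more-open region, and 28 held both a narrow and a wider less-open region.

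Gene length and level moved with these counts. Genes with a narrow less-open region inside had a median span of 67 kb, against 22.8 kb over all joined genes tested, and a median mean level of 5.17 FPKM against 4.27 FPKM. Among genes under 30 kb, 38 of 90 with such a region (42.2%) were lower and 13 (14.4%) higher, against 28.4% and 21.2% of all genes of that length. From 30 to 100 kb, 59 of 170 (34.7%) were lower and 18 (10.6%) higher, against 26.5% and 22.4%. Over 100 kb the direction turned: 19 of 139 (13.7%) were lower and 40 (28.8%) higher, against 9.99% and 34.1%. In each of the 3 length classes, then, the share lower was above and the share higher below that of all genes of like length. These comparisons were not at like level. The median level with such a region was 11.6 FPKM against 5.26 FPKM of all genes under 30 kb. It was 5.89 against 4.35 FPKM from 30 to 100 kb, and 2.99 against 1.93 FPKM over 100 kb. Genes were not split by length and level together.

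**Figure D4:**
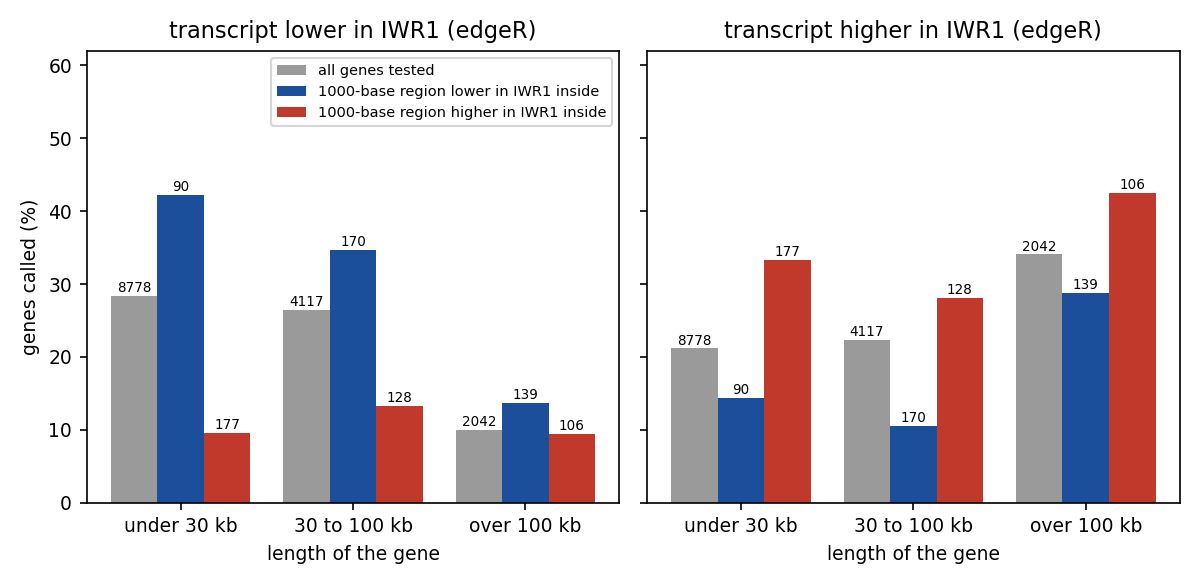
Share (%) of tested genes called lower (left) and higher (right) in IWR1 by edgeR, in 3 classes of gene length, for all genes and for genes with a narrow less-open or a narrow more-open region inside, with the number of genes above each bar. In genes under 30 kb 42.2% of those with a narrow less-open region are lower against 28.4% of all, and over 100 kb 13.7% against 9.99%.

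Split by level instead, the picture was uneven. In the highest of 3 equal classes of mean level (over 10.5 FPKM), 61 of 136 with a narrow less-open region inside (44.9%) were lower, against 45.7% of all such genes, and 26 (19.1%) were higher against 28.1%. In the middle class, 45 of 157 (28.7%) were lower and 27 (17.2%) higher, against 24.5% and 26.7%. In the lowest class, 10 of 106 (9.43%) were lower and 18 (17%) higher, against 5.88% and 15.1%. At the highest level, therefore, fewer rises rather than more falls set these genes beside the others. The classes of length and level were chosen after seeing the data and carry no test.

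Tango2 (gene ID 27883, chromosome 16, 18300825 to 18348098) had a start in a less-open region and a lower transcript. Its outermost start, at 18348098 on the minus strand, lies in a narrow more-open region (18347598 to 18348598), and the start in the less-open region, at 18343932, is an internal one. Its level was 91.7, 88.3, 75 and 84.1 FPKM in DMSO libraries 1 to 4, and 15.3, 33.8, 33.4 and 20.6 FPKM in IWR1 libraries 5 to 8. No IWR1 library reached the lowest DMSO library. The transcript fell by 1.90 on the log2 scale (SE 0.24, edgeR adjusted p = 6.06e-05), and the microRNA gene Mir185 lies within its model.

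Usp17lb (gene ID 381944, chromosome 7, 104840257 to 104842583) had a less-open start without a called change. Its level was 141, 260, 138 and 260 FPKM in DMSO and 93.5, 151, 243 and 103 FPKM in IWR1, so that the groups overlapped. The log2 fold change was -0.62 (SE 0.31, edgeR adjusted p = 0.117). Without IWR1 library 7, the highest of its group, it was -0.95 (edgeR adjusted p = 0.0158). Leaving out any other library gave no call, and without DMSO library 4 it was -0.41 (edgeR adjusted p = 0.311). The Usp17l genes are close copies that the counting could have split, so this value is uncertain.

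Among genes with a narrow less-open region inside, the 8 largest falls were in Actr6, Rpf2, Prdx3, Abce1, Sarnp, Gabarapl2, Etnk1 and Alppl2. They were taken by size after the values were known, from called genes with a mean level of 5 FPKM or more and no overlap between groups, leaving out predicted genes without a name. Actr6 (chromosome 10, 89711966 to 89732319), an actin-related subunit of a complex that places the histone variant H2A.Z, had 178, 173, 191 and 285 FPKM in DMSO and 13, 15.3, 33.2 and 21.5 FPKM in IWR1. It fell by 3.52 on the log2 scale (SE 0.32, edgeR adjusted p = 1.18e-05), and its region (89720122 to 89721122) lay 11.6 kb past the start. That every IWR1 library was below every DMSO library was a condition of the choice.

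Rpf2, a ribosome biogenesis factor gene, averaged 351 ± 48.2 FPKM in DMSO and 48.4 ± 17.3 FPKM in IWR1 (SD, n = 4 each), with a region 22.9 kb past its start (chromosome 10, 40223608 to 40224608). Prdx3, the mitochondrial peroxiredoxin gene, held 46.5, 44.5, 45 and 43.3 FPKM in DMSO and 5.62, 9.67, 6.24 and 5.55 FPKM in IWR1. Its region (chromosome 19, 60870542 to 60871542) was 3.5 kb past the start. The log2 fold change of Prdx3 was -2.91 (SE 0.23, edgeR adjusted p = 8.38e-06).

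Abce1, a ribosome recycling factor gene whose model overlaps Anapc10, fell by 2.75 (SE 0.20) and held a region 2.5 kb past its start. Sarnp, of mRNA export, fell by 2.73 (SE 0.21). Gabarapl2, an autophagy gene with 877 to 1379 FPKM in DMSO and 111 to 331 FPKM in IWR1, fell by 2.66 (SE 0.33). The Gabarapl2 region (chromosome 8, 111943230 to 111944230) had 2 more narrow and 3 wider less-open regions within 65.9 kb. Etnk1, of phosphatidylethanolamine synthesis, fell by 2.61 (SE 0.24) and the alkaline phosphatase gene Alppl2 by 2.60 (SE 0.32). In Alppl2 the region also held the start of Gm29371, whose window is printed above, and another lay 2.1 kb outside the gene. The edgeR adjusted p of these 8 genes was between 6.90e-06 and 5.39e-05.

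Several genes with a narrow less-open region inside rose, by the same choice after the fact. Gnb5, a G protein beta subunit gene, had 1.89, 1.17, 0.871 and 0.16 FPKM in DMSO and 12.2, 10.1, 5.72 and 9.83 FPKM in IWR1. It rose by 3.10 on the log2 scale (SE 0.56, edgeR adjusted p = 0.000671), and its model overlaps Myo5c. Wwox, a gene of an oxidoreductase with WW domains that spans 913 kb, had 2.57, 3.23, 2.37 and 0.93 FPKM in DMSO and 19.2, 24.6, 16.1 and 17.8 FPKM in IWR1. In both genes every IWR1 library was above every DMSO library, which the choice required.

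Wwox rose by 2.94 (SE 0.34, edgeR adjusted p = 3.94e-05). Il34, the gene of a ligand of the receptor Csf1r, rose by 2.57 (SE 0.42). Macrod2, which encodes a macrodomain enzyme that removes ADP-ribose from proteins, averaged 6.48 ± 2.43 FPKM in DMSO and 35.3 ± 9 FPKM in IWR1 (SD, n = 4 each), a rise of 2.31 (SE 0.28, edgeR adjusted p = 4.76e-05). Its narrow less-open region (chromosome 2, 140742616 to 140743616) lay 348 kb past the start of a gene of 1998 kb. Mcu, the channel gene of the mitochondrial calcium uniporter, rose by 1.56 (SE 0.21) and held its region 167 kb past the start. Efhb rose by 1.72 (SE 0.30), Camkmt, a calmodulin methyltransferase gene, by 1.65 (SE 0.34) and Hbs1l, of ribosome rescue, by 1.49 (SE 0.34). The models of Wwox, Il34, Macrod2, Mcu, Efhb, Camkmt and Hbs1l overlap other annotated genes, so without strand their counts are uncertain.

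**Figure D5:**
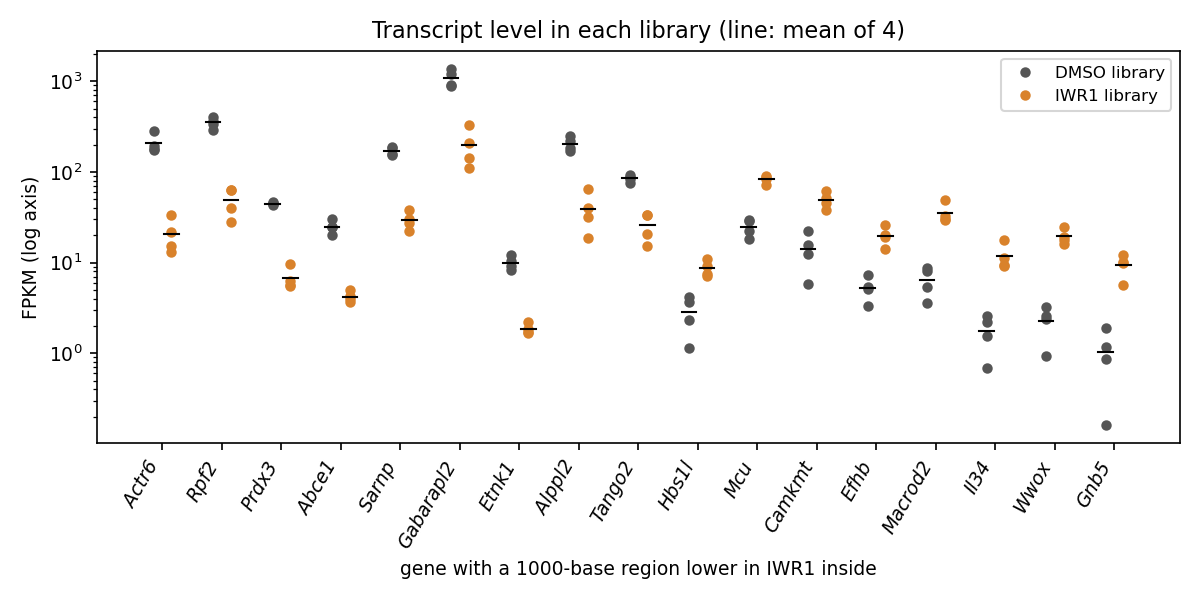
Level (FPKM, log axis) in each of the 4 DMSO and 4 IWR1 RNA-seq libraries for Tango2 and for the 8 largest falls and 8 largest rises among genes with a narrow less-open region inside; the line is the mean of 4 libraries. In none of these genes do the 2 groups overlap, which was a condition of the choice for the largest falls and rises. It was not a condition for Tango2, where 75 FPKM was the lowest in DMSO and 33.8 FPKM the highest in IWR1.

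Genes with several narrow less-open regions did not all move one way. Of 25 tested genes with at least 2 midpoints inside, 8 (32%) were lower and 4 (16%) higher, beside 25.4% and 23.3% of all genes and 29.1% and 17.8% of genes with any midpoint inside. Smyd3 had 26, 21.6, 18.8 and 21.5 FPKM in DMSO and 8.19, 10.5, 11.7 and 11 FPKM in IWR1, and fell by 1.26 (SE 0.18, edgeR adjusted p = 0.00012). Pfkfb3 averaged 3.84 ± 1.69 FPKM in DMSO and 1.69 ± 0.445 FPKM in IWR1 (SD, n = 4 each), and fell by 1.39 (SE 0.34, edgeR adjusted p = 0.00522). Arhgap26, whose model overlaps Fgf1 and others, had a log2 fold change of 0.77 (SE 0.50, edgeR adjusted p = 0.226), at levels of 0.143 to 1.81 FPKM. So of the genes with 3 regions inside, 2 fell and 1 was not called.

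With 2 midpoints inside, the kinase gene Tlk2, of chromatin assembly, averaged 35.2 ± 4.09 FPKM in DMSO and 10.4 ± 2.44 FPKM in IWR1 (SD, n = 4 each), a fall called by edgeR (adjusted p = 2.70e-05). Yme1l1, a mitochondrial protease gene whose model overlaps Mastl, fell by 1.84 (SE 0.23), with its regions 14.3 and 15.9 kb past the start. The phosphatase subunit gene Ppp4r2 fell by 0.91 (SE 0.16), and Gmeb2 fell by 1.82 (SE 0.35). Cep70 and Dcaf7 were called lower too. The 4 called higher were Nrg3 (log2 fold change 2.05), Anks1b (1.42), Magi1 (1.20) and Baz2b (0.75). Their edgeR adjusted p was between 0.00547 and 0.0173, at mean levels of 0.876 to 7.22 FPKM. No alternatives are given for Cep70, Dcaf7 and these 4. Glb1, in the group of 4, was at 15.2, 18.7, 19 and 21.9 FPKM in DMSO and 15.9, 21.7, 18.6 and 12.8 FPKM in IWR1. Its groups overlapped and its log2 fold change was -0.31 (SE 0.22, edgeR adjusted p = 0.275).

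A narrow less-open region lay within 10 kb of 12 of the 274 tested genes of the pathway and marker lists (4.38%), beside 622 of all 14937 (4.16%). Over all genes tested, 25.4% were lower and 23.3% higher. Of 43 tested genes of the major wave of genome activation, 37 were lower and 2 higher, but only Polr1a had such a region. Of 60 tested genes of the ribosome biogenesis list, which does not hold Rpf2, 59 were lower, and Polr1a was the listed gene with a region. Polr1a, which encodes the largest subunit of RNA polymerase I, had 2.99, 2.33, 2.85 and 4.03 FPKM in DMSO and 0.246, 0.736, 1.54 and 1.28 FPKM in IWR1. It fell by 1.89 (SE 0.46, edgeR adjusted p = 0.00462), and its region lay 13.4 kb past the start.

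The RNA polymerase II machinery had 30 of 46 tested genes lower and 7 higher, beside 25.4% and 23.3% of all genes tested. Of the 46, 2 had a region nearby. Gtf2e2, the gene of the smaller TFIIE subunit, averaged 116 ± 6.26 FPKM in DMSO and 56.3 ± 5.37 FPKM in IWR1 (SD, n = 4 each). It fell by 1.22 (SE 0.16, edgeR adjusted p = 7.71e-05) and held its region inside, in a model that overlaps Smim18. Taf8, a TFIID subunit gene with a region 1.89 kb outside, fell by 0.57 (SE 0.21, edgeR adjusted p = 0.0411). The Taf8 groups overlapped, and the call was lost when any of 5 of the 8 libraries was left out, and with RLE in place of TMM scaling (edgeR adjusted p = 0.0557). Without DMSO library 4, its highest, the log2 fold change was -0.38 (edgeR adjusted p = 0.15).

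Of 36 tested Wnt and beta-catenin genes, 12 were higher and 6 lower, beside 23.3% and 25.4% of all genes tested. Of the 36, 5 had a narrow less-open region within 10 kb. Fbxw11, a ubiquitin ligase gene that targets beta-catenin, had 9.54, 10.3, 10 and 12.5 FPKM in DMSO and 3.75, 4.94, 4.08 and 5.74 FPKM in IWR1. It fell by 1.38 (SE 0.22, edgeR adjusted p = 0.000246), with the region (chromosome 11, 32636949 to 32637949) 5.11 kb before its start. Dvl3, a Dishevelled gene that relays Wnt signals, held its region inside, at 0.571, 0.981, 0.26 and 0.382 FPKM in DMSO and 1.7, 1.89, 1.73 and 3.01 FPKM in IWR1. The rise in Dvl3 was 1.80 (SE 0.51, edgeR adjusted p = 0.0109). Pygo1, of the beta-catenin transcription complex, had a log2 fold change of 0.85 (SE 0.37, edgeR adjusted p = 0.0733). The other 2, Csnk1a1 and Tcf7l1, were not called either. The direction thus differed among genes of 1 pathway.

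Of 33 tested lineage and pluripotency factors, 12 were lower and 6 higher, beside 25.4% and 23.3% of all genes tested. Of the 33, 2 had a region nearby. Tead4, a factor of the trophectoderm lineage, had 8.03, 7.4, 6.59 and 9.58 FPKM in DMSO and 2.35, 2.42, 4.05 and 3.77 FPKM in IWR1. It fell by 1.51 (SE 0.27, edgeR adjusted p = 0.00058), and the region (chromosome 6, 128306138 to 128307138) lay 5.83 kb outside the gene. Sall4, of pluripotent cells, fell by 0.87 (SE 0.19, edgeR adjusted p = 0.00281), with the region 9.37 kb outside (chromosome 2, 168738460 to 168739460). That region lay inside another gene, Atp9a, whose log2 fold change was 0.25 (SE 0.35, edgeR adjusted p = 0.585). Tead4 and Sall4 each had every IWR1 library below every DMSO library.

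Early 2-cell genes had 13 of 27 tested higher and 2 lower, beside 23.3% and 25.4% of all genes tested. Of the 27, 2 had a region nearby, Usp17lb and Tcstv3. Tcstv3, a 2-cell transcript, had 206, 201, 194 and 205 FPKM in DMSO and 406, 427, 622 and 435 FPKM in IWR1. It rose by 1.05 (SE 0.18, edgeR adjusted p = 0.000421), although the region 3.3 kb outside it (chromosome 13, 120321058 to 120322058) was less open. Of 43 tested maternal oocyte genes, 23 were higher and 3 lower, and 0 had a region within 10 kb. Of the 8 tested cumulus and granulosa markers, 1 was higher and 1 lower, and 0 had a region within 10 kb. The models of Polr1a, Dvl3, Sall4, Smyd3, Pfkfb3 and Tlk2 overlap non-coding or predicted genes, so some of their counts could belong to those.

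One narrow less-open region, on chromosome 9 (110280813 to 110281813), held the microRNA gene Mir6236. Its mature sequence from RefSeq, at chr9:110281353-110281371 on the + strand, is shown with the seed, bases 2 to 8, in capitals.
mmu-miR-6236: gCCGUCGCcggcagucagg
Counts at this model of 0.123 kb gave 17.6, 21.8, 15.5 and 29 FPKM in DMSO and 62.9, 51.4, 80.5 and 46.9 FPKM in IWR1. They rose by 1.34 on the log2 scale (SE 0.41, edgeR adjusted p = 0.0159), and the groups did not overlap. The call was lost without IWR1 library 7 (edgeR adjusted p = 0.0551). The model lies within the non-coding gene Gm39429, so these reads need not come from the microRNA.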

How the data were processed

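ATAC-seq was made from 2 and RNA-seq from 4 collections per group. The submitters' processing notes name mm10 and, with no role, MACS2, Bowtie2 2.2.6, STAR 2.5.1b, DESeq2, cutadapt 1.11, featureCounts 1.5.0-p1 and Trim Galore. For region calling and comparison, pooling of libraries and any shift of reads for the transposase, the labels state no steps. The authors' region lists hold coordinates only, printed as deposited. Per the file headers, the authors deposited raw counts per gene, for 24918 entries. A p-value from edgeR or DESeq2 measures the spread between collections of embryos. Those from Fisher's exact test rest on counts of regions and hold no spread between collections.

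Distances were taken from region midpoints to RefSeq genes and starts (GRCm38.p6), and shares were compared by Fisher's exact test with Benjamini-Hochberg adjustment over 8 tests. Counts were tested with edgeR 4.0.16 (R 4.3.3; filterByExpr, TMM, quasi-likelihood, two-sided, threshold 0.05), with DESeq2 1.42.0 as an alternative. FPKM came from counts, deposited gene length and total count. In simulated counts for 14994 genes of this comparison, 78% of 2-fold and 100% of 4-fold changes were recovered, with 5 false calls. The simulation gave every gene the same dispersion and changed 100 genes per fold, none of them at low counts. In the real data 48.7% of genes were called, so these rates do not carry over to it. IWR1 columns are numbered 5 to 8, unlike the labels, and were mapped to the group only. Another 16 per-library columns were not used. Of the 24918 entries, 23608 had 1 locus and a position, and 14937 of those were tested.

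The rule for named genes took called genes with a start in a region and a mean level of 5 FPKM or more (Tango2 alone met it), and up to 3 genes per list with a region within 10 kb. Genes with the largest changes, with several regions, and Usp17lb, Glb1 and Mir6236 were added after values were seen. The members, lists and classes were chosen with earlier results of these data known. Base composition over whole regions was not analysed here, as no genome sequence was used. Software was Python 3.11.15 with Matplotlib 3.10.9, NumPy 2.4.6, pandas 2.3.3, statsmodels 0.14.6 and SciPy 1.17.1.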

Additional observations from a re-analysis of the deposited data

Results flagged for a closer look

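In 5 of 72 groups of 4 libraries, 1 library of a named gene stood apart from the other 3, where chance alone gives about 1 in 20. Tcstv3 had 622 FPKM in IWR1 library 7 against 406 to 435 FPKM in the others. Taf8 had 25.2 FPKM in DMSO library 4 against 17 to 18.3 FPKM. Dvl3 had 3.01 FPKM in IWR1 library 8 against 1.7 to 1.89 FPKM. Actr6 had 285 FPKM in DMSO library 4 against 173 to 191 FPKM. Prdx3 had 9.67 FPKM in IWR1 library 6 against 5.55 to 6.24 FPKM.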

How the results depend on the processing

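The share near starts against both other lists, and the share over 10 kb from genes against narrow more-open regions, kept direction and side of the threshold under every distance, gene set, edge and merging tried. Differences that passed no test changed sign: against wider less-open regions, the share far from genes (-0.462 percentage points) was 0.222 with region edges and 1.28 with neighbours counted once, and the share inside genes (3.09) was -0.115 with edges; against narrow more-open regions, the share inside genes (-2.26) was 2.21 with protein-coding genes only. With region edges in place of midpoints, the share inside genes was lower than in narrow more-open regions by 14.4 percentage points (-14.4, 59% against 73.4%, adjusted p = 1.42e-10). With 5 kb in place of 10 kb, the difference in near neighbours from narrow more-open regions was -2.42 percentage points and no longer passed. Of 622 tested genes within 10 kb of a narrow less-open region, 107 (17.2%) were higher and 209 (33.6%) lower. With the midpoint inside the gene it was 71 (17.8%) and 116 (29.1%) of 399. Within 50 kb it was 223 (16%) and 464 (33.3%) of 1392. Over all joined genes tested, 23.3% were higher and 25.4% lower. Leaving out 1 library at a time gave 93 to 114 higher and 195 to 207 lower, and 1 to 2 lower and 0 to 0 higher among genes with a start in a region; the 2 came without IWR1 library 7. Other scaling, no filter on low counts and DESeq2 stayed within 1.5 times. These runs and those without a library are given as counts only, without the number of genes tested in each. No paired analysis was possible because the IWR1 columns carry numbers that the labels do not. Base composition and stricter region thresholds were not run, for want of a genome sequence and of scores. Of the named genes' alternatives, calls changed for Taf8, Mir6236, Usp17lb and Pygo1; Pygo1 was called by DESeq2 (adjusted p = 0.0459) and without DMSO library 1 (edgeR adjusted p = 0.0278). Depth per region is unknown.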
